A study of Mus musculus with 2 samples.

Results

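The immediate early genes Fos, Fosb, Jun, Junb, Jund, Egr1, Ier2, Dusp1 and Btg2 were read in both ChIP-seq libraries of the series, one for Msl1 and one for Nsl1. The 9 genes were chosen by name, as a class of rapidly inducible genes, out of 22359 protein-coding genes whose transcription start site (TSS) could be placed on the mouse genome build mm9. The study asked where the MSL and NSL complexes sit in the genome of mouse embryonic stem cells (mESCs). Both libraries came from wild type mESCs labelled E14 (passage P26, genetic background 129P2/OlaHsd), a male line that the study grew on CD1 feeder cells and kept for a passage without them. The cells were not treated, chromatin was cross-linked with formaldehyde and sheared, and the antibodies were raised by the authors against Msl1 or Nsl1. Each antibody has 1 library, so no comparison below has a replicate check, and any contrast of the 2 proteins is one of single libraries.

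Msl1 and Nsl1 are the scaffold subunits of the MSL and NSL complexes, which share the histone acetyltransferase Mof, the enzyme that acetylates lysine 16 of histone H4. Immediate early genes are transcribed within minutes of a growth factor or stress signal without new protein synthesis: kinases of the MAP kinase cascade act on serum response factor and its partners, and on CREB, which are already present at these promoters. Their genes are short, are often poised with a paused RNA polymerase II, and encode mostly transcription factors, together with proteins that shut the signal off again.

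The promoters of the genes discussed most are printed first, because the counts that follow are taken around their TSSs. Each line gives the 250 bases that end 1 base before the TSS, read from mm9 in the direction of transcription. Capitals mark a complete cyclic AMP response element (CRE, TGACGTCA, the site CREB binds) or a TATA box (TATAAA). The first 6 are the genes in which Msl1 reached 3 times its local level at the TSS, and Jund is added because the window upstream of its annotated TSS was unlike the others.
Fos, chr12:86814590-86814839, plus strand: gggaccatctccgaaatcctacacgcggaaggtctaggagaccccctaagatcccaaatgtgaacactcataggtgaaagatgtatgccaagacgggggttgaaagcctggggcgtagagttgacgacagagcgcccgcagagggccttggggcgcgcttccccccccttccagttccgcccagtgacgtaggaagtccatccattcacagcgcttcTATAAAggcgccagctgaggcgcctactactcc
Jun, chr4:94718914-94719163, minus strand: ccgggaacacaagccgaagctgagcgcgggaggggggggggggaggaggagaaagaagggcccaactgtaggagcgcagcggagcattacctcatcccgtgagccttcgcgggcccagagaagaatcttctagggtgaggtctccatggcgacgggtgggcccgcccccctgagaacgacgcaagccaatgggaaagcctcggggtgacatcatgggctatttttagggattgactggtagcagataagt
Junb, chr8:87502618-87502867, minus strand: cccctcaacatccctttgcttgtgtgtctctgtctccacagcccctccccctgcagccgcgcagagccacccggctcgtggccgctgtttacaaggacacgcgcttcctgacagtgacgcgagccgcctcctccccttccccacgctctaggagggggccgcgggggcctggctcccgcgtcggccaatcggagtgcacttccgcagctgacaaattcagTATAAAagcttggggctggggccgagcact
Ier2, chr8:87186752-87187001, minus strand: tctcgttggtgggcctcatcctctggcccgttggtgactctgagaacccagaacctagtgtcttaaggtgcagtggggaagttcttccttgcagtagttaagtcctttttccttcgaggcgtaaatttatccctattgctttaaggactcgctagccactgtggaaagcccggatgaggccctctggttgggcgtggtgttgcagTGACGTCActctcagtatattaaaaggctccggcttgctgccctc
Dusp1, chr17:26645465-26645714, minus strand: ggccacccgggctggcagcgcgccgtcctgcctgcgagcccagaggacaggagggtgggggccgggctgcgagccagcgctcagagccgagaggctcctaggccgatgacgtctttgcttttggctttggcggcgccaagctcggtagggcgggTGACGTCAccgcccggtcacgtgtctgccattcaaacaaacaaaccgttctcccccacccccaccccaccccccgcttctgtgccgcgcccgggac
Btg2, chr1:135975698-135975947, minus strand: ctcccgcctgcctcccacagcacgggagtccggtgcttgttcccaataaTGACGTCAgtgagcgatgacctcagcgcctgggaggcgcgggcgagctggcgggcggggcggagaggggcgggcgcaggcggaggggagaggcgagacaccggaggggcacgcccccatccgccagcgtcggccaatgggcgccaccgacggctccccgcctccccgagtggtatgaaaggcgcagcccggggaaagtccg
Jund, chr8:73221388-73221637, plus strand: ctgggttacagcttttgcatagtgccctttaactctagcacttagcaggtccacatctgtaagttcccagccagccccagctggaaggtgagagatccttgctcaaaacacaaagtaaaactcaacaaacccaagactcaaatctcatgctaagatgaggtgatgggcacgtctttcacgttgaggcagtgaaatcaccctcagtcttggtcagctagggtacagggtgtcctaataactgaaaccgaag

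A complete CRE lay in 3 of the 9 promoters (Ier2, Dusp1 and Btg2), at -45, -96 and -201 counted to its first base, against 1.97% of all 22359 promoters of this length. The shorter TGACG, which is contained in the CRE, was found on either strand in 7 of 9, against 19.8% of all promoters, and was missing from Jun and Jund. TATAAA lay in Fos at -33 and in Junb at -30, against 12.2% of all promoters. Within the promoter sequence searched, the CArG box, the site of serum response factor, was found only in Egr1. Egr1 had 2 matches, at -105 and -83, while 1.30% of all promoters held one. Sequence further upstream was not searched for any of these motifs, so a missing match does not show that a gene lacks the site. GGGCGG was found in 5 of 9 promoters and CCAAT in 4 of 9, against 41.1% and 34.7% of all. The AP-1 site TGANTCA and CCGGAA, 1 form of the Ets site, were found in none of the 9, against 5.92% and 14.3% of all promoters. Other forms of the Ets site were not searched. These are matches of letters on both strands, not measured sites. Within 500 bases of the TSS, the GC content had a median of 61.9% over the 9 genes against 55.1% over all protein-coding TSSs, and the observed over expected CpG ratio 0.763 against 0.557. Jund was the exception, with 46.6% GC and a CpG ratio of 0.240 at the TSS of its longest transcript.

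Depth was 23888517 reads for Msl1, each 50 bases long, and 26084098 for Nsl1, each 36 bases long, and 19483142 and 24883001 were left after 1 read was kept per position and strand. Msl1 was built with a NEXTFlex kit and Nsl1 with NEBNext, so antibody, kit and read length cannot be told apart. Among markers of the cells, Pou5f1 and Klf4 were at 5.2 and 4.99 times the local level for Msl1 and the other 4 of 6 mESC markers between 0.965 and 2.27, so 2 of 6 reached 3, where 23.7% of all protein-coding genes did. None of the 6 reached 3 for Nsl1 (at most 2.29), where 24.0% did, and none of the 6 fibroblast or 3 liver markers did in either library. Fibroblast markers reached 2.47 (Thy1) for Msl1 and 1.92 for Nsl1, and the part of feeder cells in any value was not tested.

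At each gene, 3 windows were counted: within 500 bases of the TSS, the transcribed part from 500 bases past the TSS to the gene end, and the 2 kb past the gene end. Reads per kb of a window were divided by the local level, the reads per kb from 5 to 50 kb on both sides of the TSS in the same library. The value is called a ratio here. Its 95% interval is exact and covers counting error only. Thresholds of 3 at the TSS and 2 elsewhere served for counting genes. Of the 22359 genes, 22046 had a local level of at least 10 reads in both libraries and form the background at the TSS, and 4793 of these, as long as the 9 genes (1522 to 7325 bases), form the background elsewhere.

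Msl1 was high at the TSS of 6 of these genes and over the transcribed part of 8, whereas Nsl1 was near the median of all genes at the TSS and somewhat above that of genes of like length over the transcribed part. For Msl1, 6 of 9 genes reached 3 at the TSS (Fos, Jun, Junb, Ier2, Dusp1 and Btg2), where 23.7% of all protein-coding genes did. The median ratio over all 9 was 3.31, against 1.86 over all genes. In the transcribed part, 8 of 9 reached 2 for Msl1, all but Fosb, where 19.4% of genes of like length did, and the median was 4.99 against 1.27. For Nsl1, none of the 9 reached 3 at the TSS, where 24.0% of all genes did, and none reached 2 in the transcribed part, where 3.76% of genes of like length did. The Nsl1 medians were 1.68 against 1.71 at the TSS and 1.31 against 1.10 in the transcribed part, where 8 of the 9 lay above the median of genes of like length. From TSS window to transcribed part the Msl1 ratio was lower in 4 of the 9 genes (Fos, Fosb, Dusp1 and Btg2) and higher in the others. The TSS window takes in 500 bases upstream, where the Msl1 mean over the 9 was 1.57 and 1.28 in steps of 250 bases. In Junb (5.57 and 7.42) and Egr1 (4.46 in each), both steps from 0 to 500 lay above the transcribed part (5.43 and 2.95). In Jun only the second did (8.62 against 5.70), and in Jund and Ier2 neither did.

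**Figure D1:**
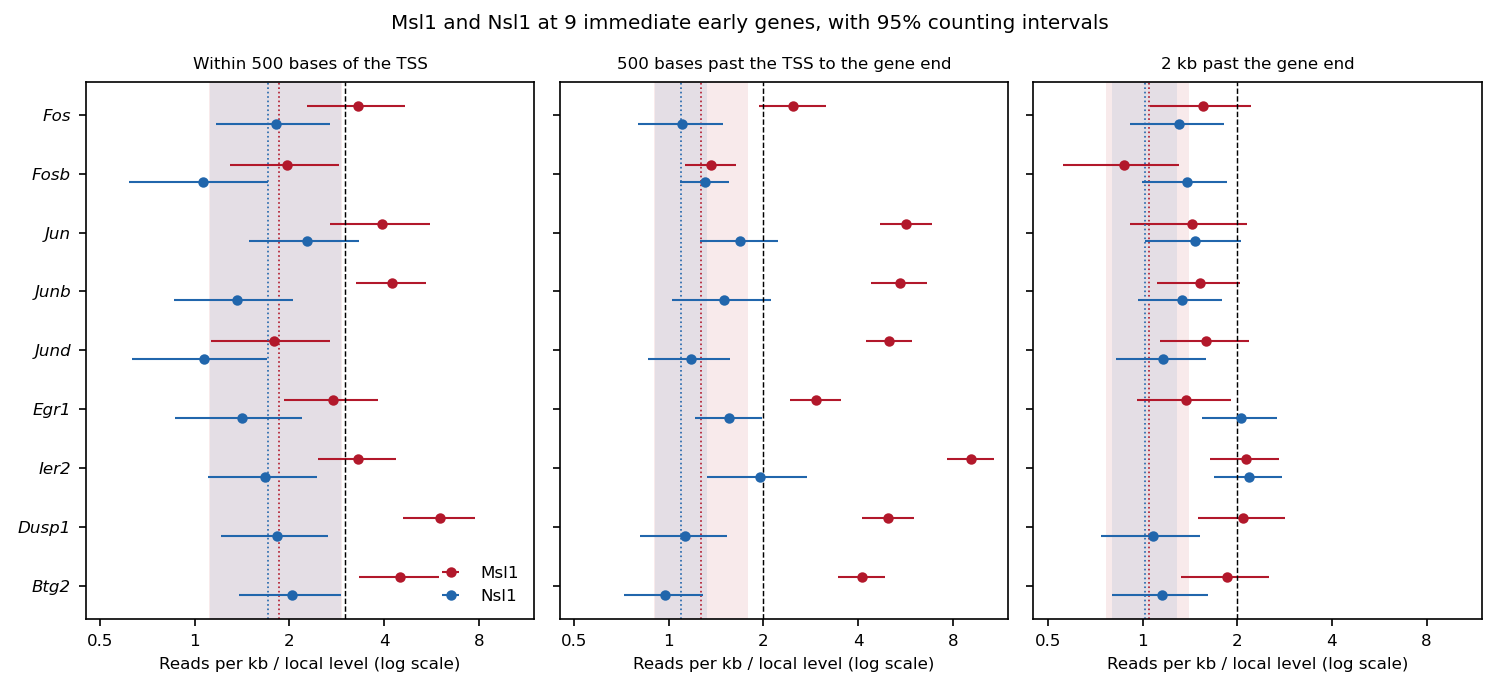
Ratio of reads per kb to the local level (log axis) in 3 windows of the 9 immediate early genes, for Msl1 (red) and Nsl1 (blue), 1 library each. Points are ratios, bars 95% counting intervals and the dashed line the threshold of 3 at the TSS or 2 elsewhere. Dotted lines and bands are the median and quartiles over all protein-coding genes (left) or those of like length. In the middle panel 8 of the 9 red points lie above 2, where 19.4% of genes of like length reached 2. All 9 blue points lie below it, where 3.76% of genes of like length reached 2.

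Fos encodes a subunit of the transcription factor AP-1 and is the textbook immediate early gene. It has 4 exons and lies at chr12:86814840-86818223 on the plus strand. Within 500 bases of its TSS there were 34 Msl1 reads and 25 Nsl1 reads, which gave ratios of 3.31 (2.28 to 4.65) and 1.81 (1.17 to 2.69). Both intervals lay above 1, and the Msl1 interval held the threshold of 3. The Msl1 reads were spread: 4 steps of 250 bases tied at 12 reads, a ratio of 4.67, and the steps from -250 to 750 were all at 3 or more. The transcribed part had 74 Msl1 reads, a ratio of 2.49 (1.94 to 3.16), and 44 Nsl1 reads, a ratio of 1.11 (0.799 to 1.49). Fos was thus at the lower end of the genes that passed in both windows for Msl1, and its Nsl1 reads over the gene could not be told from the local level.

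Fosb, which encodes a close relative of Fos, was the longest of the genes and the only one that passed no threshold for Msl1. It lies at chr7:19888070-19895394 on the minus strand, and its 7325 bases reach into its own local level, which starts at 5 kb. At the TSS, 27 Msl1 reads gave 1.97 (1.29 to 2.88) and 17 Nsl1 reads 1.07 (0.619 to 1.71). In the transcribed part the 2 libraries were alike, with 128 Msl1 reads at 1.37 (1.13 to 1.64) and 142 Nsl1 reads at 1.31 (1.09 to 1.55). The highest Msl1 steps, at 250 to 500 and at 1500 to 1750, had 15 reads each, a ratio of 4.37. The highest Nsl1 step lay at 8750 to 9000, beyond the gene, 13 reads and 3.26, next to the TSS of the lincRNA Gm17589 at 9275.

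Jun encodes the main partner of Fos in AP-1 and has 1 exon, at chr4:94715725-94718913 on the minus strand. Its TSS window had 33 Msl1 reads, a ratio of 3.95 (2.70 to 5.6), and 27 Nsl1 reads, a ratio of 2.27 (1.49 to 3.33), the highest Nsl1 ratio at a TSS among the 9 and the only one whose interval reached 3. Downstream, the Msl1 reads formed a plateau: the 9 steps from 0 to 2250 held 11, 18, 16, 15, 17, 19, 14, 18 and 14 reads, and the next step 3. The coding sequence of Jun ends 1952 bases past the TSS, so the plateau covered it and ran on into the rest of the exon. Over the transcribed part Msl1 was at 5.70 (4.69 to 6.88) and Nsl1 at 1.69 (1.26 to 2.22). Jun also had a second Msl1 maximum upstream, at -750 to -500, with 19 reads, equal to the highest step of the plateau at a ratio of 9.10. Nsl1 was highest in that same step, with 12 reads and 4.04 (2.08 to 7.09). The annotated transcript BC042782 runs across this step on the other strand, but its TSS lies 688 bases inside Jun, not in the step.

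Junb has 1 exon, at chr8:87500811-87502617 on the minus strand, and encodes an AP-1 subunit that can dampen the action of Jun. It had the most Msl1 reads at the TSS, 64, at 4.24 (3.25 to 5.45), and 23 Nsl1 reads at 1.36 (0.862 to 2.05). All 7 steps from 0 to 1750 were at 3 or more for Msl1, which is almost the whole of its 1807 bases, with the highest at 1250 to 1500, 29 reads and 7.69 (5.13 to 11.1). None of its 23 steps reached 3 for Nsl1. The transcribed part held 107 Msl1 reads at 5.43 (4.41 to 6.61) and 33 Nsl1 reads at 1.5 (1.03 to 2.11).

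Jund, the most steadily expressed of the Jun genes as a rule, lies at chr8:73221638-73224515 on the plus strand with 1 exon. At the TSS of its longest transcript it had the lowest Msl1 ratio of the 9, 23 reads and 1.79 (1.13 to 2.70), and 18 Nsl1 reads at 1.07 (0.633 to 1.70). The Msl1 steps were at 0 to 8 reads up to 1250 and then held 26, 28, 16, 34, 26 and 13 reads to 2750. Thus the transcribed part was at 5.03 (4.23 to 5.96) for Msl1, 154 reads, and at 1.18 (0.861 to 1.57) for Nsl1, 47 reads. A shorter annotated transcript starts 1219 bases downstream, at base 73222857, where this step up begins. It was taken up after these values were seen. Around this TSS, Msl1 had 61 reads and a ratio of 4.73 (3.59 to 6.11), and Nsl1 28 reads and 1.70 (1.12 to 2.46). With it, 7 of the 9 genes would be at 3 or more for Msl1 at the TSS and still none for Nsl1. Because this TSS was chosen where Msl1 steps up, the added gene follows from the choice and adds no evidence. The highest Jund step, at 2000 to 2250 with a ratio of 10.6, lies in coding sequence, close to the TSS of Gm11175, a short gene annotated on the other strand at 2341.

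**Figure D2:**
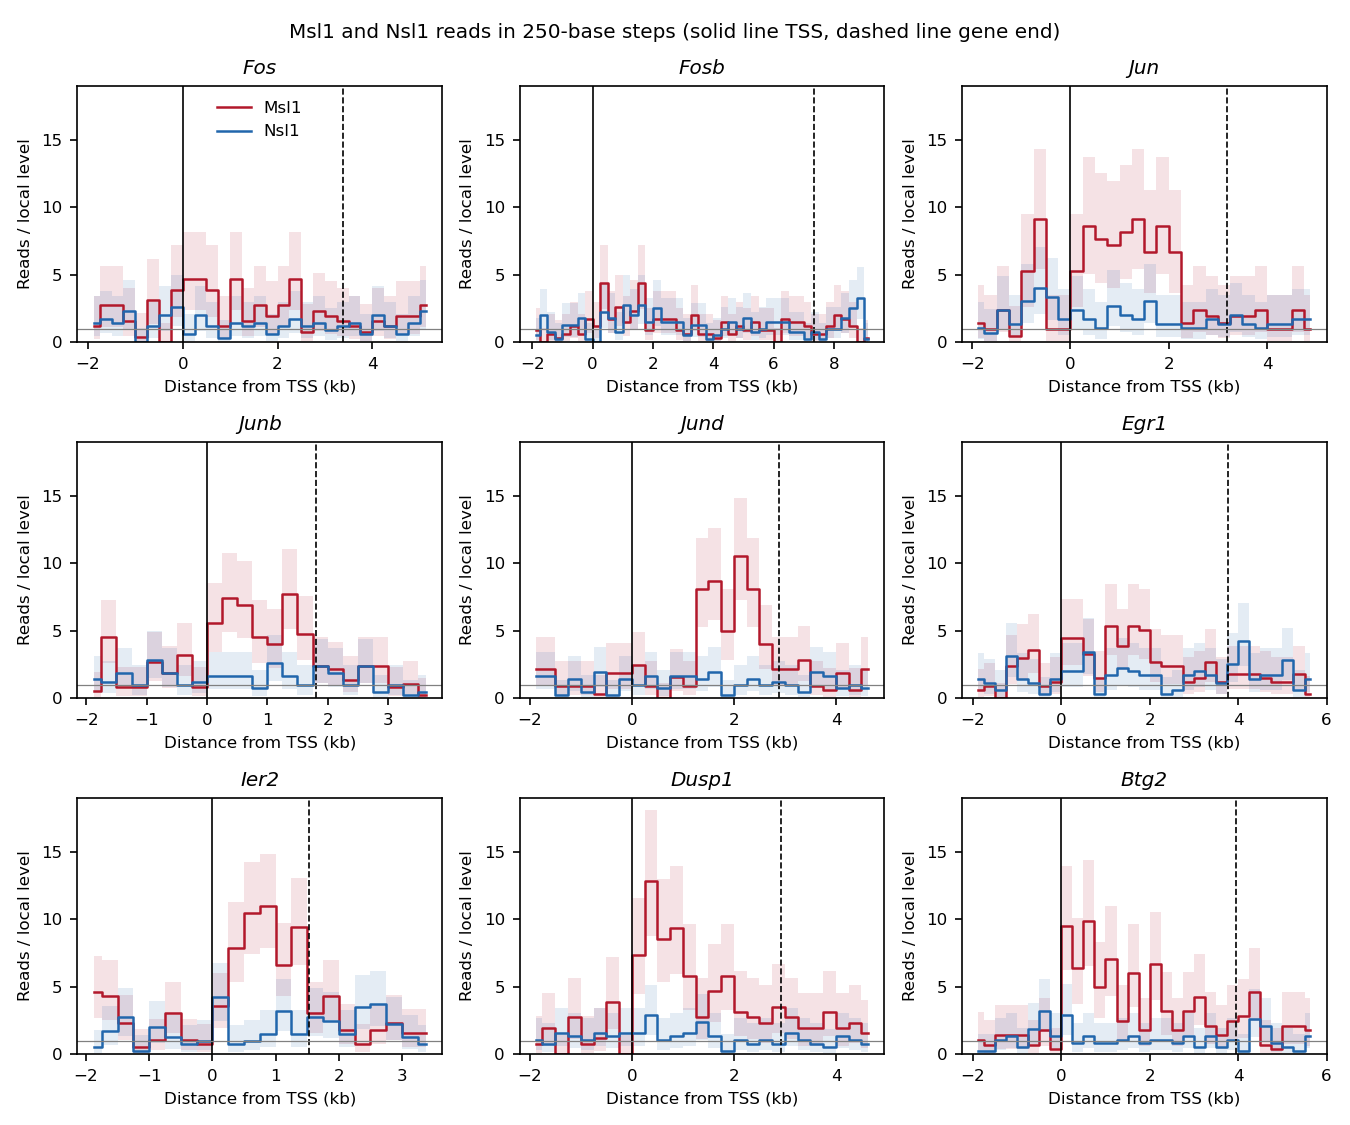
Ratio to the local level in steps of 250 bases against the distance from the TSS (kb), from 2 kb upstream to 2 kb past the end of each gene, for Msl1 (red) and Nsl1 (blue), 1 library each, with 95% counting intervals as bands. The solid line marks the TSS, the dashed line the gene end and the grey line the local level. The red line stands highest within the gene in Fos, Fosb, Junb, Egr1, Ier2, Dusp1 and Btg2, and from 1250 bases past the TSS in Jund. In Jun it is as high upstream, at -750 to -500, as within the gene. Single steps, such as the first past the TSS of Ier2 (4.23 for Nsl1), go the other way.

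Egr1 encodes a zinc finger transcription factor that is induced through serum response factor. It lies at chr18:35020861-35024638 on the plus strand with 2 exons. With 37 Msl1 reads at the TSS, a ratio of 2.75 (1.93 to 3.81), it lay just under the threshold, and 20 Nsl1 reads gave 1.42 (0.863 to 2.20). The steps from 1000 to 2000 held 18, 13, 18 and 17 Msl1 reads, the highest at 5.35. In the transcribed part Msl1 was at 2.95 (2.44 to 3.53) and Nsl1 at 1.56 (1.21 to 1.98). The highest Nsl1 step lay past the gene, at 4000 to 4250, with 15 reads and 4.25 (2.37 to 7.04), just beyond the TSS of Gm17507, a gene annotated on the other strand at 3902.

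Ier2, a small nuclear protein gene of 1 exon and 1522 bases at chr8:87185230-87186751 on the minus strand, had the highest Msl1 ratio in the transcribed part. It was at 9.16 (7.67 to 10.9) there, 147 reads in 1.022 kb, higher than in 99.8% of genes of like length. At the TSS it had 52 Msl1 reads and 3.31 (2.46 to 4.37). Thus Ier2 held more Msl1 over its gene than at its start: the steps from 0 held 14, 31, 41, 43, 26 and 37 reads up to the gene end, and the run at 3 or more reached 2000, past the gene end. For Nsl1, the step at 0 to 250 held 17 reads, 4.23 (2.46 to 6.79), and the next steps 3 and 4 reads. The TSS window as a whole had 27 Nsl1 reads and 1.68 (1.10 to 2.45), so Ier2 was the only one of the 9 in which Nsl1 was highest, at 3 or more, directly downstream of the TSS. Its transcribed part was at 1.95 (1.33 to 2.76) for Nsl1, the nearest of the 9 to the threshold of 2.

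Dusp1 encodes a phosphatase that inactivates MAP kinases and so ends the signal that induces these genes. It has 4 exons, at chr17:26642535-26645464 on the minus strand. Its Msl1 ratio at the TSS was the highest of the 9, 6.02 (4.58 to 7.79) with 62 reads, and was above that of 98.5% of all protein-coding genes. There were 28 Nsl1 reads, a ratio of 1.83 (1.21 to 2.65), near the middle of all genes (53.7%). The Msl1 step at 250 to 500, in coding sequence of the first exon, held 33 reads, a ratio of 12.8 (8.77 to 18.1), the highest step in any of the genes, and the step directly upstream of the TSS held 0 reads. The highest Nsl1 step was the same one, with 11 reads and 2.87. Over the transcribed part Msl1 was at 4.99 (4.11 to 6.03) and Nsl1 at 1.13 (0.809 to 1.53).

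Btg2, which encodes an antiproliferative protein that is also induced through p53, lies at chr1:135971747-135975697 on the minus strand with 2 exons. It had 51 Msl1 reads at the TSS, 4.5 (3.33 to 5.96), and 31 Nsl1 reads, 2.04 (1.38 to 2.91). Msl1 was at 3 or more in each step from 0 to 1250 and highest at 500 to 750, in the intron, with 28 reads and 9.88 (6.53 to 14.4). The Nsl1 reads were highest upstream, at -500 to -250, with 12 reads and 3.16. Over the transcribed part Btg2 had the lowest Nsl1 ratio of the 9, 0.974 (0.721 to 1.29), against 4.12 (3.46 to 4.87) for Msl1.

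Ordered by Msl1 ratio at the TSS, the genes ran Dusp1, Btg2, Junb, Jun, Ier2, Fos, Egr1, Fosb and Jund, and the intervals of all neighbours in this order overlapped. The lower limit was above 3 in 3 genes, Junb, Dusp1 and Btg2, where it was in 8.05% of all protein-coding genes, and above 1 in all 9, where it was in 53.3%. In the transcribed part the order was Ier2, Jun, Junb, Jund, Dusp1, Btg2, Egr1, Fos and Fosb. Here the interval of Ier2 lay above that of Jun and the interval of Fos above that of Fosb, while all other neighbours overlapped, and 7 of 9 lower limits were above 2, where 10.0% of those of genes of like length were. For Nsl1, the upper limit at the TSS was under 3 in 8 of 9 genes (all but Jun), as it was in 55.6% of all genes. The lower limit for Nsl1 was above 1 in 5 of 9 genes at the TSS, near the 51.0% of all genes, and in 5 of 9 in the transcribed part, where it was in 21.7% of genes of like length.

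The 2 thresholds were also set side by side, which restates the counts above and adds no evidence to them. Of the 5230 protein-coding genes at 3 or more for Msl1, 49.7% were also at 3 or more for Nsl1, against 0 of the 6 immediate early genes among them. Counted over all genes, 11.9% were at 3 or more for Msl1 and under 3 for Nsl1, against 6 of the 9. Over the transcribed part, 17.4% of genes of like length were at 2 or more for Msl1 and under 2 for Nsl1, against 8 of the 9. A high ratio at the TSS often went with one over the gene: of the 840 genes of like length at 3 or more for Msl1 at the TSS, 55.4% were at 2 or more in the transcribed part, as were all 6 immediate early genes. The median over these 6 was 5.21, against 2.12 over the 840. These counts on joint thresholds were added after the values of the genes had been seen.

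**Figure D3:**
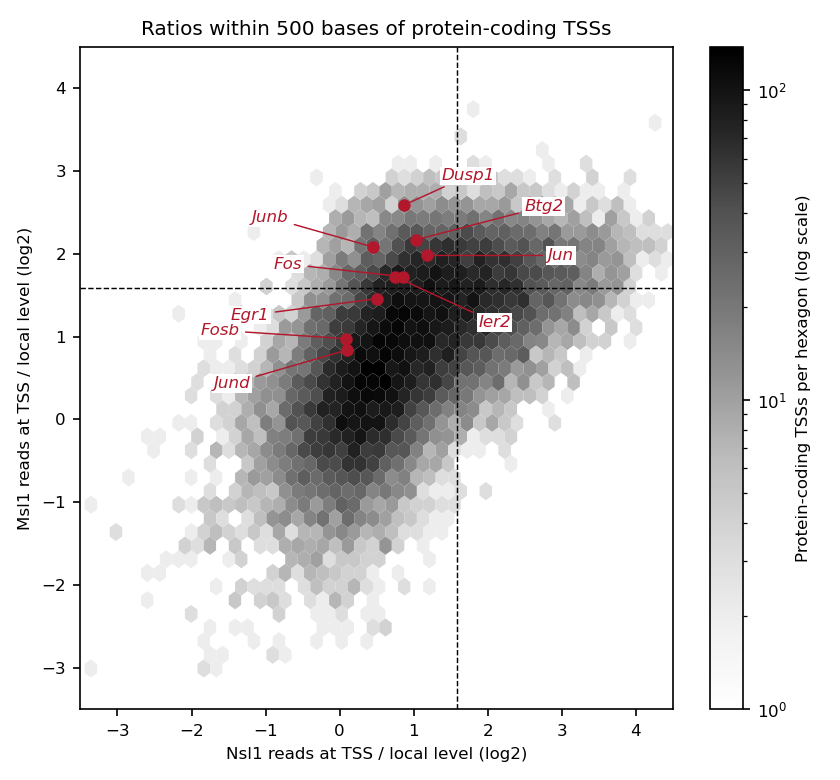
Msl1 against Nsl1 ratio to the local level within 500 bases of 1 TSS per protein-coding gene, both on log2 axes, with shading by the number of TSSs per hexagon and the 9 immediate early genes as red points. Dashed lines mark a ratio of 3. All 9 points lie left of the vertical line, where 24.0% of all genes reached 3 for Nsl1. Of the 9, 6 lie above the horizontal line, where 23.7% of all genes reached 3 for Msl1. The 662 of 22046 TSSs with 0 reads in either library are not drawn.

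Set against each other per read of the 2 libraries, Msl1 exceeded Nsl1 at the TSS of every one of the 9 genes, from 1.56 times (0.910 to 2.70) in Jun to 3.55 times (2.18 to 6.0) in Junb. The interval lay above 1 in 7 of 9, all but Jun and Jund, as it did in 18.4% of 17456 genes with at least 20 reads. The median was 2.10 against 1.06 over those genes, so a value above 1 was itself common among them. At 2 or more were 6 of 9, where 14.6% of those genes were. In the transcribed part the median was 3.80 against 1.28 over 4369 genes of like length. There 8 of 9 were at 2 or more, where 18.2% of genes were, with Ier2 the highest at 5.87 (3.98 to 8.89) and Fosb the lowest at 1.15 (0.900 to 1.47), and the interval lay above 1 in 8 of 9, where it did in 36.8%. Past the gene end the median was 1.22 against 1.12 over 4252 genes of like length, and Fosb, Egr1 and Jun were below 1. Values there ran from 0.697 in Fosb to 1.66 in Dusp1, the one gene whose interval (1.03 to 2.70) lay above 1, where 14.8% of genes of like length had such an interval.

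In the 2 kb past the gene end the ratios were lower than over the genes for Msl1, but above those of genes of like length for both proteins, with medians of 1.56 against 1.05 for Msl1 and 1.33 against 1.02 for Nsl1. The lower limit was above 1 in 6 of 9 genes for Msl1, where it was in 19.4% of genes of like length, and in 3 of 9 for Nsl1, where it was in 14.2%. For Msl1, 2 of 9 genes reached 2, Ier2 at 2.13 (1.64 to 2.73) and Dusp1 at 2.09 (1.5 to 2.83), where 7.16% of genes of like length did. For Nsl1, 2 of 9 did, Ier2 at 2.18 (1.69 to 2.77) and Egr1 at 2.06 (1.55 to 2.67), where 4.17% did. Egr1 had the TSS of Gm17507 in this window, and no annotated TSS lay in that of Ier2. The remaining ratios ran from 0.874 to 1.85 (Msl1) and from 1.08 to 1.47 (Nsl1). Upstream, from -2000 to -500, the medians were 1.73 for Msl1 and 1.35 for Nsl1, against 1.05 for each over genes of like length. Jun had the highest Msl1 ratio there, 3.27 (2.33 to 4.48), followed by Ier2 at 2.63 (2.01 to 3.39), whose upstream neighbour, the lincRNA Gm2529, starts at -2276 on the other strand.

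Averaged over the 9 genes, the Msl1 profile stepped up at the TSS and stayed up. It went from 1.28 in the step before the TSS to 4.90 in the step after it and to 6.39 at 250 to 500, and was still at 5.15 at 1500 to 1750. Genes of like length went from 1.30 to 2.23 and 2.57 and were back at 1.56 by then. In the step before the TSS the 2 means were thus nearly equal, and they parted downstream of it, while the step at -750 to -500, which holds the upstream maximum of Jun, was at 2.67 against 1.45. The medians in that step were 1.86 and 1.11. Besides Jun, Egr1 (3.57), Fos (3.11) and Ier2 (3.06) were at 3 or more there, and the rest were under 3. The mean Nsl1 profile of the 9 genes was at 1.38 before and 1.8 after the TSS and had its highest value, 1.98, at 1000 to 1250. The mean over genes of like length was 2.59 in the step after the TSS, but their median there was 1.66, the same as the median of the 9 genes, so the 9 did not stand apart from the typical gene of like length in that step. For Msl1 the medians differed as the means did, 6.35 against 1.76 at 250 to 500. The highest Msl1 step of a gene lay at a median of 625 bases past the TSS, between -625 in Jun and 2125 in Jund, against 375 over the 2480 genes of like length whose highest step held at least 10 reads. This value is unsteady. In 4 of the 9 genes several steps tied for the highest, of which the most upstream was taken, and with the most downstream one the median was 1375. It was also 1375 with all reads kept, and 450 with steps of 100 bases. For Nsl1 that median was -125 against 125 over 2585 such genes, and in 4 of the 9 (Fos, Junb, Jund and Dusp1) no step reached 3, so that this position has little weight. The 9 genes were also not held to the least count of 10 reads, which Fos (9 reads) and Jund (8 reads) did not meet for Nsl1. The 2 medians are thus not on like terms.

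**Figure D4:**
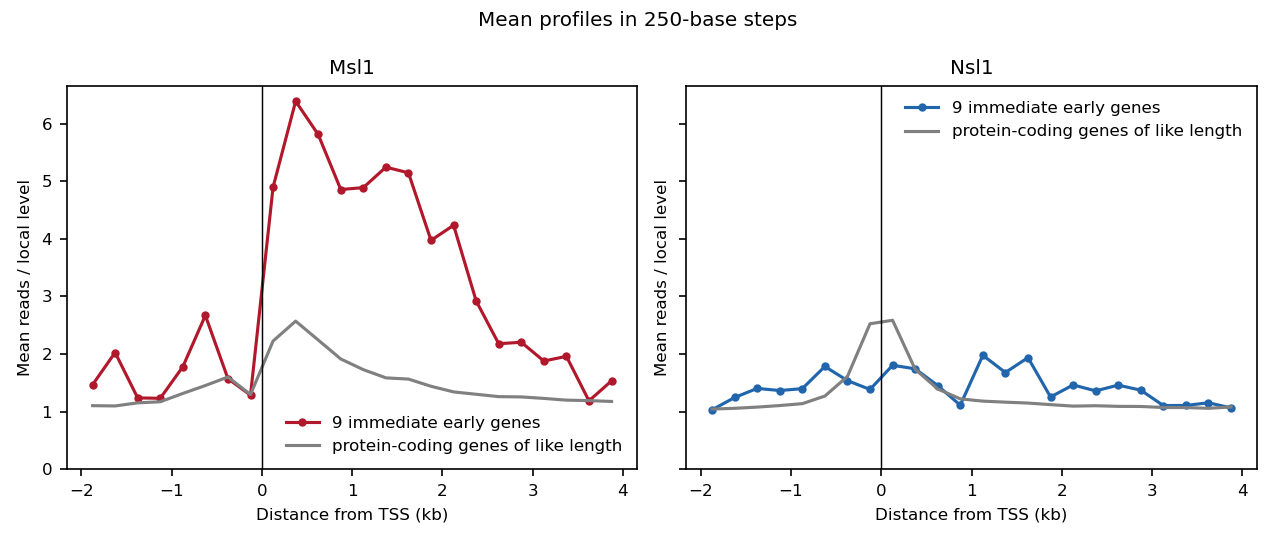
Mean ratio to the local level in steps of 250 bases against the distance from the TSS (kb), for Msl1 (left) and Nsl1 (right); coloured lines with points are the mean of the 9 immediate early genes and grey lines the mean of protein-coding genes of like length, without error bars since each is 1 library. The Msl1 means meet in the steps from -500 to 0, part again past the TSS and reach 6.39 and 2.57, and the Nsl1 means in the step after the TSS are 1.8 and 2.59, where the medians, not drawn, are both 1.66.

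The density over the transcribed part relative to the TSS window, gene by gene, had a median of 1.07 for Msl1, against 0.719 over the 3358 genes of like length with at least 10 Msl1 reads at the TSS. Jund (2.82) and Ier2 (2.77) were the highest and Fosb (0.695) the lowest, with an interval that lay above 1 for those first 2 only, where it did in 4.08% of the 3358 genes. The value of Jund rests on the TSS of its longest transcript: around the shorter one, the 2 Msl1 ratios were 6.22 and 4.73. The same quantity for Nsl1 had a median of 1.10, or 0.744 with the shorter Jund transcript, against 0.650 over 3796 genes with at least 10 Nsl1 reads at the TSS. Its interval lay above 1 in none of the 9, where it did in 1.11% of these.

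Profiles of the genes were alike in part. Over the 24 steps from -2000 to 4000 in each library, 48 steps in all, the correlation of a gene with the mean of the other 8 was highest for Junb (Pearson r = 0.805) and lowest for Jund (0.292), whose reads start late. Among 3468 other genes of like length, the 5 most like the mean of the 9 were Aldoa (0.918), Arc (0.887), Ptma (0.878), Klf2 (0.878) and D4Wsu53e (0.877). Arc and Klf2 are themselves immediate early genes, Aldoa encodes a glycolytic enzyme and Ptma the nuclear protein prothymosin alpha. Of the 5, only D4Wsu53e was at 3 or more for Nsl1 at the TSS (3.44), where 24.0% of all genes were. All 5 were for Msl1 (3.89 to 5.84), where 23.7% were. The steps used to pick them include the TSS, so these counts follow in part from the choice. These coefficients are across steps of the same 2 libraries and describe shape, with no test.

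Beyond the 9, a list of 29 other immediate early genes was read at the TSS. Of these, 17 were at 3 or more for Msl1 and 2 for Nsl1, beside 23.7% and 24.0% of all genes, and 12 were at 3 in neither. Their medians were 3.31 for Msl1 and 1.63 for Nsl1, close to those of the 9 genes. Fosl2, another Fos relative, was the highest for Msl1 at 7.73 (6.01 to 9.81), with only 11 Nsl1 reads, 0.813 (0.405 to 1.46), and Dusp2 the lowest at 1.23 (0.632 to 2.16). The 2 genes at 3 or more for Nsl1 were Klf10 and Klf6, zinc finger transcription factors, and both were also at 3 or more for Msl1. Klf10 stood apart with 132 Nsl1 reads, 9.93 (8.23 to 11.9). Klf6 was at 3.39 (2.37 to 4.70), an interval that held 3, so it was not set apart from genes just under 3. Egr3 was the lowest for Nsl1 at 0.738.

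Of 12 regulators and kinases that act upstream of these genes, 2 were at 3 or more for Msl1 and 3 for Nsl1, beside the same shares of all genes, with medians of 2.13 and 2.25. Map2k1, which encodes the kinase MEK1, was at 3 or more in both libraries, at 3.38 for Msl1 and 3.76 for Nsl1. Map2k2, which encodes MEK2, was the highest for Nsl1 at 4.32 (3.40 to 5.41) with Msl1 at 1.79, and Rps6ka3 the highest for Msl1 at 3.58 (2.06 to 5.79). Elk3 was the lowest in both, at 0.893 and 0.882. Srf, the gene of serum response factor itself, was at 2.12 and 1.83.

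**Figure D5:**
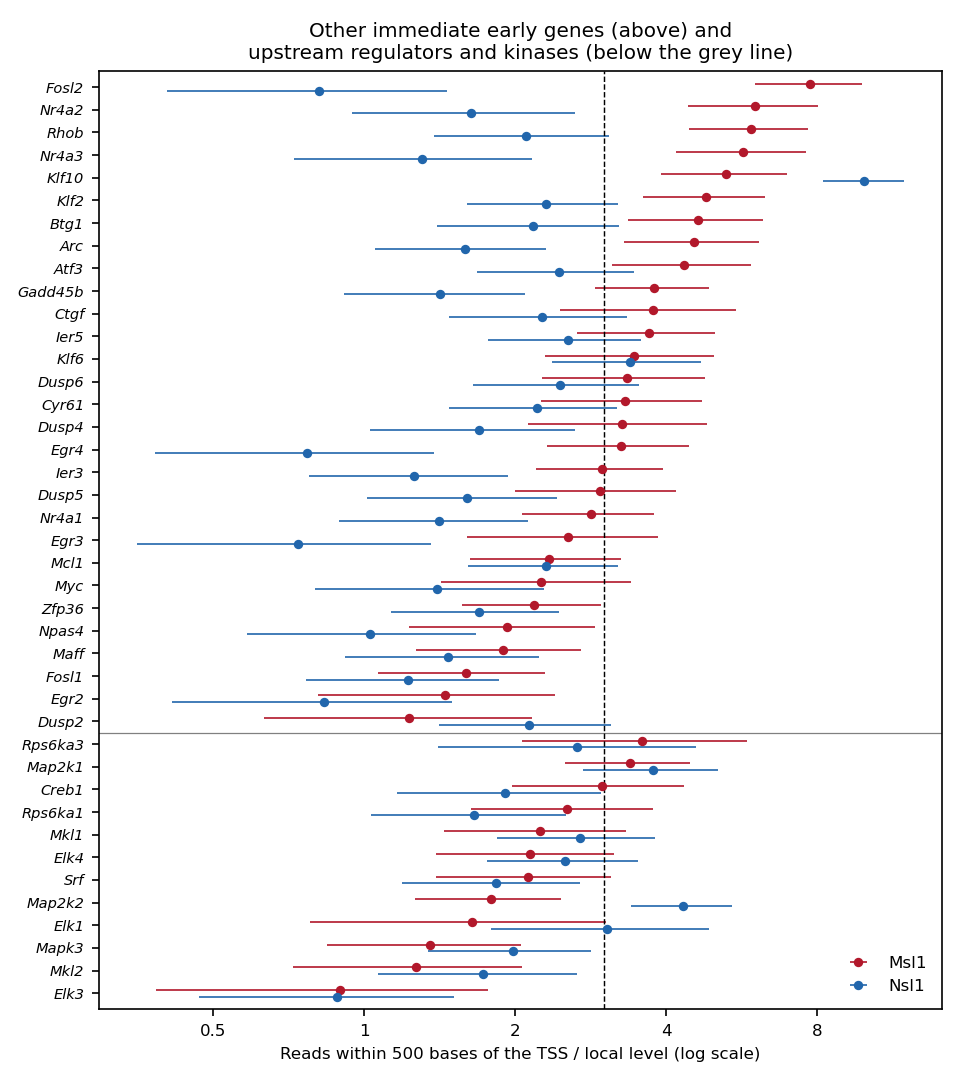
Ratio of reads within 500 bases of the TSS to the local level (log axis) for 29 other immediate early genes (above the grey line) and 12 upstream regulators and kinases (below it), for Msl1 (red) and Nsl1 (blue), with 95% counting intervals. The dashed line marks 3, which 23.7% of all genes reached for Msl1 and 24.0% for Nsl1. Above the grey line 17 red and 2 blue points reach it, and below it 2 red and 3 blue.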

How the data were processed

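Msl1 and Nsl1 ChIP-seq data of wild type mESCs were used. For each antibody there was 1 library. Reads were single, were aligned to mm9 with Bowtie by the authors, and were limited to unique ones. The submitters' processing notes name Bowtie 0.12.7 and CASAVA 1.8.2. The deposited files hold 1 line per aligned read with its position and strand. Each line also carries a deposited score, always 255, which was not used.

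From these positions, reads of the nuclear chromosomes were counted after 1 was kept per position and strand. 18.3% of Msl1 reads and 4.56% of Nsl1 reads repeated one. Reads were moved by 109 bases for Msl1 and 67 bases for Nsl1, to the middle of the fragment (218 and 134 bases, from the cross-correlation of the strands on 3 chromosomes). TSSs are those of the longest spliced protein-coding transcript in GENCODE's gene set for mm9, which differs from the gene set release used in the study. Ratios carry exact 95% binomial intervals, which cover counting error only, since PCR reads are not independent molecules. With 1 library per antibody no test was possible. Motifs were searched by their letters in mm9 sequence. An Input was not used here.

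All 9 genes are named. Of 2 further lists, genes at either end of the range or at 3 or more in both libraries are named, as well as Srf, chosen after its values were seen, and of the marker lists those at 3 or more and the end of a range. From the list of upstream regulators and kinases as first drawn up, 1 gene was left out, enters no count of the list and is not reported here. The 5 genes most like the mean profile were taken among genes with at least 50 reads in each library. The genes, lists and windows were chosen with earlier results of these data known. The counting at the TSS and past the gene end and the place of the highest step were tested on simulated data. That of the transcribed part was not. Python 3.11.15, numpy 2.4.6, pandas 2.3.3, scipy 1.17.1 and matplotlib 3.10.9 were used. Alternatives tried were all reads kept, a local level from 10 to 100 kb, the genome level, a move of 100 bases, the most upstream TSS, a window of 1000 bases on each side, steps of 100 bases and lower thresholds. The shorter Jund transcript, the median of 1 kb windows as local level and the most downstream of tied steps were added after seeing the data.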

Additional observations from a re-analysis of the deposited data

How the results depend on the processing

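Of 105 values recomputed under alternative settings, 90 stayed within the counting interval or within 1.5 times the count, and 15 moved. The counts of genes at 3 for Msl1 at the TSS (5 to 9) and at 2 in the transcribed part (8 or 9) were not among those that moved. With 9 genes in all, neither count could rise past 1.5 times, so only a fall could have been labelled as moved. Both were 9 at the genome level, where 42.6% of all genes and 43.6% of genes of like length were called, and the lower thresholds gave 7 and 8, beside 46.2% and 36.2%. More values moved at the genome level than under any other setting. With the mean level of the genome in place of the local level, the median Msl1 ratio was 4.86 at the TSS and 6.25 in the transcribed part, and the median Nsl1 ratio 2.57 and 2.07. The counts for Nsl1 then were 1 gene at the TSS (Btg2, 3.19), where 32.5% of all genes were called under this setting, and 6 in the transcribed part, where 16.5% of genes of like length were. Past the gene end they were 7 for Msl1 (28.1%) and 5 for Nsl1 (15.7%). With the median of 1 kb windows as local level, chosen after seeing the data, 1 gene reached 2 for Nsl1 in the transcribed part (4.76% of genes of like length). Lower thresholds (2 at the TSS, 1.5 elsewhere) gave 2 genes for Nsl1 at the TSS (41.5% of all), 3 in the transcribed part (14.5%), and 6 for Msl1 past the gene end (20.6%). With all reads kept, 1 gene reached 2 past the gene end for Msl1 (7.57%), and the median distance of the highest Msl1 step was 1375 bases in place of 625. It was 1375 as well with the most downstream of tied steps, an alternative chosen after seeing the data (375 in genes of like length either way). For Nsl1 that distance went from -125 to 125 with reads moved by 100 bases, with the shorter Jund transcript or with the most downstream of tied steps. Fos was at 2.72 for Msl1 with 1000 bases on each side of the TSS, Egr1 and Fosb reached 3 for Msl1 only at the genome level (4.86 and 3.55), and Jund there (3.02) and with its shorter transcript. The cause of these moves was not tested. No paired analysis was possible because each antibody has 1 library. At the TSS 17 to 64 reads lie behind each ratio, so differences between neighbouring genes mostly cannot be resolved at this depth.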
